A study of Mus musculus with 8 samples.

Results

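Mitogen-activated protein (MAP) kinase phosphatases with dual specificity were followed across 4 groups of sorted mouse CD4 T cells. The set was 6 genes, Dusp1, Dusp2, Dusp4, Dusp5, Dusp6 and Dusp10, and every non-control probe carrying one of these names on the array was used. This gave 6 probes of 5 genes, of 41174 probes and 27670 names on the array, with 2 probes for Dusp4 and 1 for each of Dusp1, Dusp2, Dusp6 and Dusp10. No probe on the array carried the name Dusp5, and Dusp5 was not analysed here.

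The groups were Treg (regulatory T cells), CD44hi, CD44lo and naive, with 2 arrays each. All 8 samples were CD4 T cells sorted from spleen and lymph nodes, pooled, of C57BL/6 males aged 15 weeks. The series title gives the cells as Ox40-cre/ROSA-YFP, so all groups are described as carrying a cre driven by Ox40, the T cell costimulatory receptor Tnfrsf4, and a YFP reporter at the ROSA locus. The labels state the YFP status of no group and give no sort marker beyond the group names, and each sample was read on 1 single-colour Agilent array after linear amplification of its RNA.

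Dual-specificity MAP kinase phosphatases remove phosphate from both the threonine and the tyrosine of the activation loop of ERK, JNK and p38 kinases, which switches the kinases off. Most are induced by the kinase pathways they inhibit, and they differ in where they sit in the cell and which kinase they prefer. In T cells the ERK, JNK and p38 pathways carry signals from the antigen receptor, costimulatory receptors and cytokine receptors.

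Signals are given as multiples of the 75th percentile of the same array, and differences as log2 values with the standard error of the limma fit. A gene was called where its p, adjusted by Benjamini-Hochberg over 17996 tested genes, was under 0.05. That percentile was between 1044.6 and 1336.8 on the Treg, CD44hi and CD44lo arrays, against 990.7 and 639.3 on the naive arrays, and 59.2% to 68.8% of probes were well above background. The 8 arrays lay on 2 slides, each of which held 1 array of every group. Slide 1 held array 1 of Treg and CD44hi and array 2 of CD44lo and naive, and slide 2 held the others. Differences within a slide of Treg or CD44hi from CD44lo or naive therefore set samples of unlike number against each other. All 6 probes were well above background on all 8 arrays, and none was saturated. The smallest p that an exact permutation test of 2 against 2 arrays allows is 0.333, so the tests used the spread that limma shares over genes. The labels do not say whether samples 1 and 2 of a group came from different animals, and the p-values may therefore reflect technical spread only.

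The group names were set against marker genes. All 8 CD4 T cell markers with a probe were well above background on all 8 arrays. Foxp3, the factor that defines regulatory T cells, read 6.84 and 6.39 in Treg, 0.844 and 0.936 in CD44hi, 1.27 and 1.79 in CD44lo, and 0.0235 and 0.0389 in naive. The 7 effector and memory markers summed to 83.9 and 81.3 in Treg, 285 and 316 in CD44hi, 53.6 and 67.8 in CD44lo, and 5.97 and 9.33 in naive. The CD44hi and CD44lo arrays thus held Foxp3 signal above the naive arrays and below the Treg arrays. In bulk samples a smaller share of cells expressing a gene and less RNA of it per cell cannot be told apart.

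Across the 5 genes, Dusp4 and Dusp10 ran in opposite orders over the groups. Dusp4 was highest in Treg, then CD44hi, then CD44lo, and lowest in naive, while Dusp10 was highest in naive, then CD44lo, then CD44hi, and lowest in Treg. For both genes the 2 arrays of each group did not overlap with those of the next group in the order. Differences that were not called lacked overlap too, such as Dusp1 in CD44lo over CD44hi and Dusp6 in CD44lo over Treg. The share of all tested genes ordered without overlap was not counted. In Treg against naive limma called 3 of the 5 genes, Dusp4 and Dusp1 higher and Dusp10 lower, where 21.9% of all tested genes were called, 11.6% higher and 10.3% lower. In CD44hi against naive it called 2 of 5, Dusp4 higher and Dusp10 lower (27.8% of all genes, 13.2% higher and 14.5% lower), and in CD44lo against naive it called Dusp4 higher (1 of 5, against 5.29% of all genes, 4.53% higher and 0.761% lower). In Treg against CD44lo it called 2 of 5, Dusp4 higher and Dusp10 lower (5.56% of all genes, 3.7% higher and 1.87% lower), and in Treg against CD44hi it called Dusp4 higher (1 of 5, against 8.19% of all genes, 4.15% higher and 4.04% lower). In CD44hi against CD44lo limma called 0 of 5 (9.37% of all genes, 6.06% higher and 3.31% lower), and 1 of the 5, Dusp4, had an unadjusted p under 0.05. Dusp2 and Dusp6 were called in none of the 6 comparisons. The median log2 difference of the 5 genes was -0.64 in Treg, 0.06 in CD44hi and -0.22 in CD44lo over naive, against -0.20, -0.15 and -0.13 for all tested genes.

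**Figure D1:**
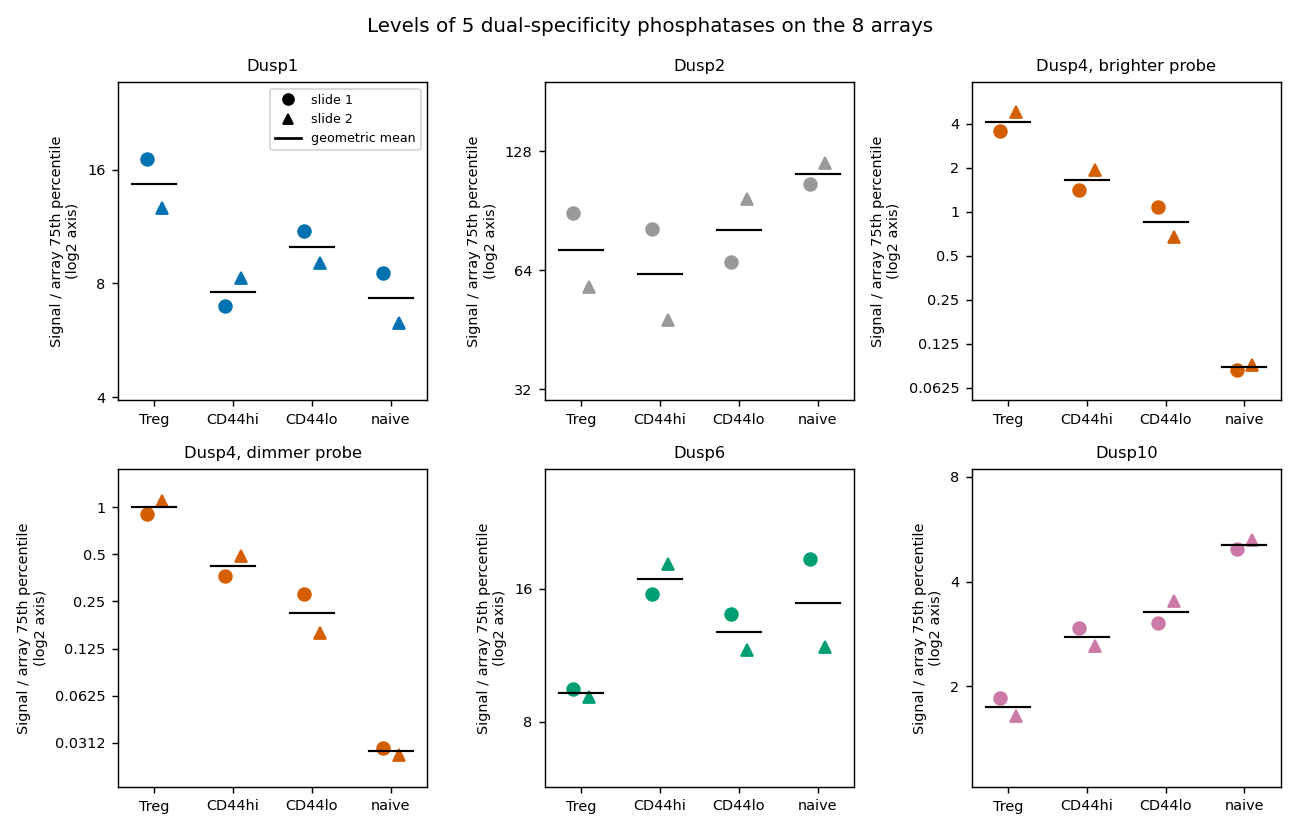
Signal of each probe on the 8 arrays as a multiple of the array's 75th percentile, on a log2 axis whose range differs between panels, with Treg, CD44hi, CD44lo and naive from left to right, circles for slide 1, triangles for slide 2 and bars for the geometric mean of the 2 arrays. Both Dusp4 probes step down from left to right and Dusp10 steps up, while the points of Dusp2 and Dusp6 overlap between several groups.

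Dusp4, also named MKP-2, is a nuclear phosphatase induced by ERK signalling that acts on ERK and JNK. The gene lies at chr8:34807610-34819894 in GRCm38.p6. Its 2 probes lie at chr8:33583106-33583165 and chr8:33580345-33580404 on the plus strand in mm7, the build of the array design. The brighter probe, which represents the gene in the fits, reads a cDNA clone, and the dimmer one reads the RefSeq transcript. On the brighter probe Dusp4 read 3.56 and 4.78 in Treg, 1.42 and 1.93 in CD44hi, 0.673 and 1.08 in CD44lo, and 0.0897 and 0.0822 in naive. Both Treg arrays were the highest of the 8, both naive arrays were the lowest, and no array of one group fell within the range of another. The dimmer probe read 0.906 and 1.09 in Treg, 0.361 and 0.487 in CD44hi, 0.158 and 0.277 in CD44lo, and 0.0262 and 0.029 in naive, in the same order and without overlap. The brighter probe exceeded the dimmer by log2 1.5 to 2.13 on each of the 8 arrays.

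Against naive, Dusp4 rose 48.1-fold in Treg (log2 5.59 ± 0.29, 95% interval 4.90 to 6.27, limma adjusted p = 6.34e-05). It rose 19.3-fold in CD44hi (log2 4.27 ± 0.29, limma adjusted p = 0.000139) and 9.90-fold in CD44lo (log2 3.31 ± 0.29, limma adjusted p = 0.00111). On slides 1 and 2 the log2 differences were 5.44 and 5.74 in Treg, 4.11 and 4.43 in CD44hi, and 3.71 and 2.91 in CD44lo, so each slide alone held the increase over naive. Among the 17996 tested genes Dusp4 had the 103rd highest difference in Treg over naive, the 420th in CD44hi and the 209th in CD44lo. The dimmer probe was called too, at log2 5.18 in Treg, 3.93 in CD44hi and 2.93 in CD44lo over naive (limma adjusted p = 0.000107, 0.000259 and 0.00242 over all tested probes). The 3 increases of Dusp4 over naive were called in all 19 alternative processings tried for each.

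Among the 3 groups other than naive, Dusp4 was 4.85-fold higher in Treg than in CD44lo (log2 2.28 ± 0.29, limma adjusted p = 0.00935, and 1.73 and 2.83 on slides 1 and 2). It was 2.49-fold higher in Treg than in CD44hi (log2 1.32 ± 0.29, limma adjusted p = 0.0389, and 1.33 and 1.31 on slides 1 and 2). Between CD44hi and CD44lo the difference was log2 0.96 ± 0.29 with a limma adjusted p of 0.0991, which was not called, and 0.40 and 1.52 on slides 1 and 2. The Treg against CD44lo call was lost without Treg array 2 (adjusted p = 0.0693) or CD44lo array 1 (0.0583). The Treg against CD44hi call was lost without any 1 of the 4 Treg and CD44hi arrays (adjusted p from 0.0746 to 0.215) or either naive array (0.0569), with slide as a block (0.0718), with no filter on dim probes (0.108), in a fit of these 2 groups alone (0.0644) and on the dimmer probe (0.0596).

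Cell markers moved with some of these differences. The 6 regulatory T cell markers summed to 177 and 163 in Treg and to 54.4 and 58.7 in CD44hi. They summed to 63.2 and 72.3 in CD44lo and to 30.5 and 45.4 in naive. Like Dusp4, this sum was highest in Treg and lowest in naive. Unlike Dusp4, it was lower on both CD44hi arrays than on both CD44lo arrays. Of the 6 markers, 2 were called lower in CD44hi than in CD44lo, 0 higher, and 4 were not called. Gpr83 read 2.45 and 2.24 in CD44hi against 10.2 and 9.80 in CD44lo. Tnfrsf18 was the largest term of the sum on every array, at 98.3 and 93.9 in Treg and 26.2 and 40.6 in naive. The 14 B cell markers with a probe summed to 13.9 and 9.93 in Treg, 13.8 and 8.99 in CD44hi, 2.56 and 3.66 in CD44lo, and 2.77 and 5.57 in naive. Between 9 and 12 of them were well above background on each array. Of the 12 tested, 4 were called higher and 3 lower in Treg against naive, with a median log2 difference of -0.43, and 5 higher and 3 lower in CD44hi, with a median of -0.24. Jchain, the joining chain of secreted antibody, read 6.61 and 2.55 in Treg, 8.73 and 3.14 in CD44hi, 0.196 and 0.175 in CD44lo, and 0.11 and 0.166 in naive, and Cd79b, a B cell receptor subunit, 3.82 and 3.53 in Treg against 0.122 and 0.249 in naive. The 3 called lower in Treg and in CD44hi were H2-Eb1, H2-Aa and H2-Ab1, chains of MHC class II. Cd79a, the other B cell receptor subunit, read at most 0.0203 on any array, and Ms4a1, the surface antigen CD20, at most 0.0662, with both Treg and both CD44hi arrays above both naive arrays for Ms4a1. The 16 myeloid and dendritic cell markers summed to 2.20 and 1.65 in Treg, 2.67 and 2.38 in CD44hi, 1.33 and 1.53 in CD44lo, and 1.25 and 1.84 in naive. Of the 13 tested, 2 were called higher and 4 lower in Treg against naive, with a median log2 difference of -0.49. In CD44hi 2 were called higher and 2 lower, with a median of -0.29. The part of these markers in the Dusp4 differences was not tested.

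Dusp1, also named MKP-1, is an immediate early, nuclear phosphatase that acts on p38, JNK and ERK. The gene lies at chr17:26505591-26508472 in GRCm38.p6. Its promoter is shown with that of Dusp10, since these are the 2 genes with a RefSeq promoter entry that were called in Treg against naive, in opposite directions, and with that of Dusp2, which shares a motif with Dusp1. The windows hold the 250 bases before the annotated start in GRCm38.p6, at chr17:26508473-26508722 on the minus strand for Dusp1, chr2:127335909-127336158 on the plus strand for Dusp2 and chr1:184034131-184034380 on the plus strand for Dusp10, each printed 5′ to 3′ along the gene. Capitals mark matches to 7 motifs searched on both strands, namely TGACGTC (cAMP response element core), TGANTCA (AP-1 site), CACGTG (E-box), TGTTTAC (forkhead site), CCGGAAG (Ets site), the CArG box and the NF-kB site.
Dusp1: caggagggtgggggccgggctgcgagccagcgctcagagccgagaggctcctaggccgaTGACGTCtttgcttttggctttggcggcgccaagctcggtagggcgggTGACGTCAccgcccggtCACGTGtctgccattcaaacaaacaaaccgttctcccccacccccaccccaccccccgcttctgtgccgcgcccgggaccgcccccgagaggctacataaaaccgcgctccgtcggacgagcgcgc
Dusp2: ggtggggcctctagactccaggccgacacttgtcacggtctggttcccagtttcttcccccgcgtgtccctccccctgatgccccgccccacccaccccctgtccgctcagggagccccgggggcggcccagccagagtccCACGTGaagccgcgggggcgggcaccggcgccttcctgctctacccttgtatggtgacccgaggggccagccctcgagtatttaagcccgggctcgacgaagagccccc
Dusp10: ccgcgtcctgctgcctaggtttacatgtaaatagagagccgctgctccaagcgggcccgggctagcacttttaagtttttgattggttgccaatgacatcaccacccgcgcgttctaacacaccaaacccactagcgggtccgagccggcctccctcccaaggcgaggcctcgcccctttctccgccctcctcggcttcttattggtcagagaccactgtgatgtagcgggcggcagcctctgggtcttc
Dusp1 held TGACGTC, the core of the cAMP response element, at -191 to -185 and at -143 to -136 from the start, the second as the 8-base palindrome that matches on both strands. It also held CACGTG, an E-box, at -126 to -121, and Dusp2 held CACGTG at -109 to -104. Of 32851 RefSeq windows of the same length, 2.78% held TGACGTC and 6.02% held CACGTG. The Dusp10 window held 0 matches to the 7 motifs, which says only that these letters are not in this window. These matches are a description of the sequence, and no binding was measured.

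Dusp1 read 17.1 and 12.7 in Treg, 6.99 and 8.29 in CD44hi, 9.05 and 11.03 in CD44lo, and 6.28 and 8.50 in naive. Both Treg arrays were above all 6 others, the CD44lo arrays were above the CD44hi and naive arrays, and CD44hi and naive overlapped. Dusp1 rose 2.01-fold in Treg over naive (log2 1.01 ± 0.24, 95% interval 0.45 to 1.58, limma adjusted p = 0.0264), by log2 1.00 on slide 1 and 1.02 on slide 2. It differed from naive by log2 0.45 ± 0.24 in CD44lo (limma adjusted p = 0.315) and by 0.06 ± 0.24 in CD44hi (0.872, with -0.28 and 0.40 on slides 1 and 2), and neither was called. Treg exceeded CD44hi by log2 0.95 ± 0.24, with 1.29 and 0.62 on slides 1 and 2 (limma adjusted p = 0.0613), and CD44lo by 0.56 ± 0.24, with 0.63 and 0.49 (0.278), and neither difference was called. The Treg against naive call was lost without Treg array 1 (adjusted p = 0.128), without Treg array 2 (0.0537), with no filter on dim probes (0.0768) and in a fit of these 2 groups alone (0.0694). The B cell marker sums above were also higher on the Treg than on the naive arrays, although the 12 tested markers went both ways, and their part in the Dusp1 difference was not tested.

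Dusp2, also named PAC-1, is a nuclear phosphatase of haematopoietic cells known from activated lymphocytes. The gene lies at chr2:127336159-127338377 in GRCm38.p6. It read 89.6 and 58.2 in Treg, 81.5 and 48.0 in CD44hi, 97.2 and 67.3 in CD44lo, and 119.7 and 105.6 in naive. On this scale the naive arrays were above all 6 others, while the Treg, CD44hi and CD44lo arrays overlapped one another. In the authors' table naive array 2 (log2 16.34) lay below array 1 of Treg (16.69), CD44hi (16.70) and CD44lo (16.80). Against naive its log2 difference was -0.64 ± 0.34 in Treg (95% interval -1.45 to 0.17, limma adjusted p = 0.206), -0.85 ± 0.34 in CD44hi (-1.65 to -0.04, 0.108) and -0.47 ± 0.34 in CD44lo (-1.28 to 0.33, 0.420). None was called, and the slides differed most in CD44hi, with -0.37 on slide 1 and -1.32 on slide 2. Between Treg, CD44hi and CD44lo the differences were at most 0.37 in size, with limma adjusted p from 0.583 to 0.854. With quantile normalization the log2 differences from naive were smaller, at -0.25 in Treg, -0.38 in CD44hi and -0.06 in CD44lo.

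The spread between the 2 arrays of a group was wide for Dusp2 in Treg, CD44hi and CD44lo. Array 1 minus array 2 was log2 0.62 in Treg, 0.77 in CD44hi, 0.53 in CD44lo and 0.18 in naive, so array 1 was higher in all 4 groups. In Treg, CD44hi and CD44lo this was wider than for 91.6%, 91.1% and 90.2% of tested genes, and in naive than for 21.2%. These shares rest on unlike spreads, since the naive arrays differed most from each other. The median absolute difference over all tested genes was 0.161 in Treg, 0.164 in CD44hi, 0.126 in CD44lo and 0.41 in naive. For Dusp10 array 1 minus array 2 was also above 0 in all 4 groups but smaller than for Dusp2, at 0.18, 0.18, 0.22 and 0.09. For Dusp4, Dusp1 and Dusp6 it took both signs.

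**Figure D2:**
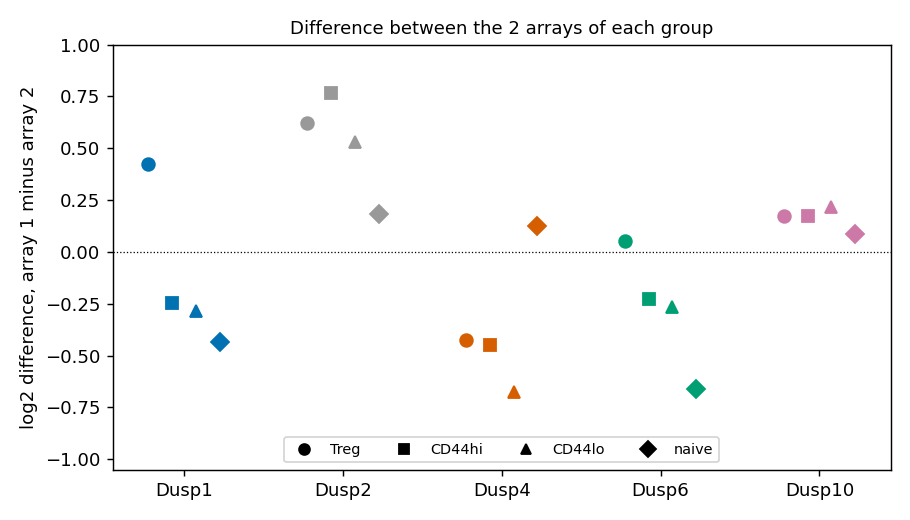
Log2 difference between array 1 and array 2 of each group (vertical axis) for the 5 genes, with circles for Treg, squares for CD44hi, triangles for CD44lo and diamonds for naive. All 4 points of Dusp2 and of Dusp10 lie above 0, and the Dusp2 points reach 0.77 in CD44hi.

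Dusp6, also named MKP-3, is a cytosolic phosphatase selective for ERK, and its transcript is itself a target of ERK signalling. The gene lies at chr10:99263231-99267489 in GRCm38.p6. It read 9.47 and 9.12 in Treg, 15.6 and 18.2 in CD44hi, 11.7 and 14.0 in CD44lo, and 11.8 and 18.7 in naive. Both Treg arrays were below all 6 others, the CD44hi arrays were above the CD44lo arrays, and the 2 naive arrays spanned most of the range. The log2 difference of Treg was -0.86 ± 0.24 from CD44hi (95% interval -1.44 to -0.28, limma adjusted p = 0.0923), -0.68 ± 0.24 from naive (-1.26 to -0.09, 0.0934) and -0.46 ± 0.24 from CD44lo (-1.04 to 0.12, 0.403). None of these was called, although all 3 were below 0 on both slides, with -0.72 and -1.0 from CD44hi, -0.98 and -0.37 from naive, and -0.56 and -0.35 from CD44lo. CD44hi differed from naive by 0.18 ± 0.24, with -0.26 and 0.63 on slides 1 and 2 (limma adjusted p = 0.601). Without naive array 1 the Treg against naive difference was log2 -1.01, and without naive array 2 it was -0.34. The Treg against CD44hi difference was called in 7 of 19 alternatives, with normexp (adjusted p = 0.0173), quantile normalization (0.0286), the authors' table (0.0166), an intensity trend (0.0426), the 2 groups alone (0.0423) and without either naive array (0.0231).

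Dusp10, also named MKP-5, is a phosphatase of nucleus and cytoplasm that prefers JNK and p38 to ERK. The gene lies at chr1:184034381-184075636 in GRCm38.p6. It read 1.86 and 1.64 in Treg, 2.94 and 2.61 in CD44hi, 3.52 and 3.03 in CD44lo, and 5.27 and 4.95 in naive. Both Treg arrays were the lowest of the 8 and both naive arrays the highest, with CD44hi below CD44lo and no overlap between groups. Dusp10 fell 2.92-fold in Treg against naive (log2 -1.55 ± 0.16, 95% interval -1.93 to -1.17, limma adjusted p = 0.000912), by -1.42 on slide 1 and -1.68 on slide 2. It was the 380th lowest of the 17996 tested genes in this comparison, and it was called in all 19 alternatives tried. It fell 1.84-fold in CD44hi against naive (log2 -0.88 ± 0.16, limma adjusted p = 0.00836, and -0.75 and -1.01 on slides 1 and 2), a call lost without CD44hi array 2 (0.0684) and in a fit of the 2 groups alone (0.0655). In CD44lo the difference from naive was -0.64 ± 0.16 (limma adjusted p = 0.082, and -0.71 and -0.58 on slides 1 and 2) and was not called.

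Dusp10 was also 1.87-fold lower in Treg than in CD44lo (log2 -0.90 ± 0.16, limma adjusted p = 0.0251, and -0.71 and -1.10 on slides 1 and 2). That call was lost without any 1 of the 4 Treg and CD44lo arrays (adjusted p from 0.092 to 0.225), with slide as a block (0.0534) and with no filter on dim probes (0.0931). The difference of Treg from CD44hi was -0.67 ± 0.16 (limma adjusted p = 0.0555) and -0.67 on each slide. CD44hi and CD44lo differed by -0.24 ± 0.16 (limma adjusted p = 0.447), with -0.04 and -0.43 on slides 1 and 2. Neither was called. The 6 naive T cell markers summed to 91.3 and 78.4 in Treg, 77.8 and 75.8 in CD44hi, 179 and 166 in CD44lo, and 250.4 and 331.8 in naive, so this sum, like Dusp10, was highest in naive and next in CD44lo. Unlike Dusp10, this sum was lower on both CD44hi arrays than on both Treg arrays, though only narrowly, at 77.8 against 78.4 for the closest arrays. Single markers went both ways: of the 6, 3 were called higher in Treg than in CD44hi and 1 lower. Tcf7 kept the order of Dusp10, at 21.7 and 19.1 in Treg, 41.8 and 42.0 in CD44hi, 48.9 and 50.1 in CD44lo, and 59.5 and 68.0 in naive. The part of these markers in the Dusp10 differences was not tested.

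**Figure D3:**
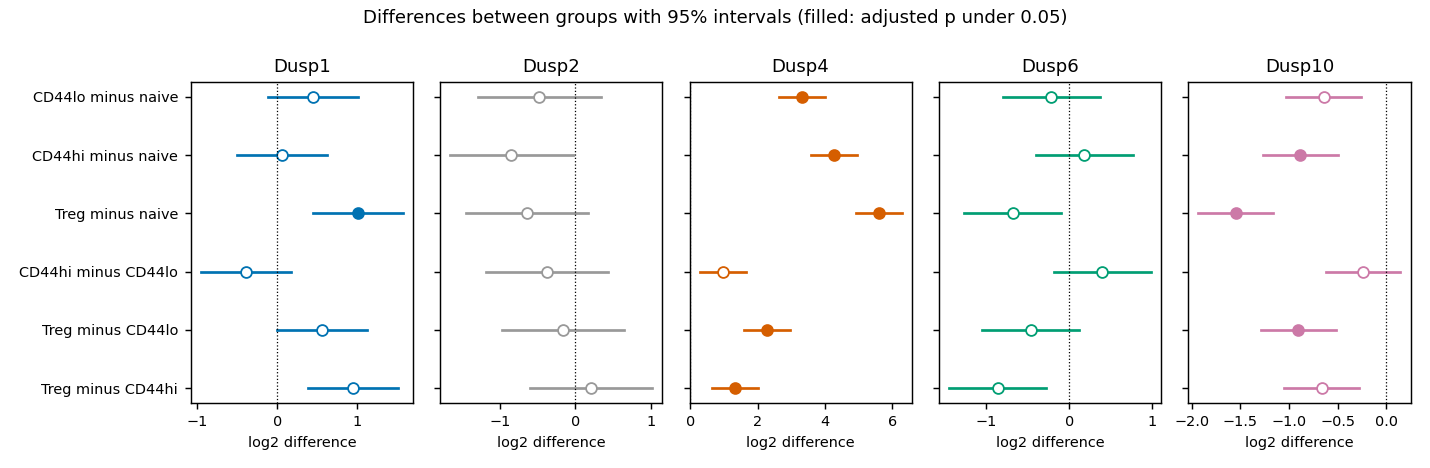
Log2 differences of the limma fit (horizontal axis, whose range differs between panels) with 95% intervals for each of the 6 comparisons of groups, from top to bottom, and filled points where the adjusted p was under 0.05. The filled points are 5 for Dusp4, 3 for Dusp10 and 1 for Dusp1, with Dusp4 at 5.59 and Dusp10 at -1.55 in Treg minus naive.

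The comparisons against naive share the naive arrays, so the values of each gene are given side by side. Dusp4 differed from naive by log2 5.59, 4.27 and 3.31 in Treg, CD44hi and CD44lo, Dusp10 by -1.55, -0.88 and -0.64, Dusp2 by -0.64, -0.85 and -0.47, Dusp6 by -0.68, 0.18 and -0.22, and Dusp1 by 1.01, 0.06 and 0.45. Dusp4 lay above 0 and Dusp10 and Dusp2 below 0 in all 3.

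The genes whose log2 values followed each phosphatase most closely over the 8 arrays were named from 13897 tested genes with a current symbol, as a description, since all points share the same arrays and scaling. For Dusp4 these were Axl (Pearson r 0.998), Itgae (0.996) and Pdcd1lg2 (0.996). Itgae, the integrin CD103 chain, differed from naive by log2 7.95, 6.05 and 4.90 in Treg, CD44hi and CD44lo, and Axl, a receptor tyrosine kinase, by 4.32, 3.23 and 2.69. For Dusp10 they were Tle4 (0.993), a Groucho family corepressor, Smg5 (0.992) and Zhx3 (0.992), and Tle4 differed from naive by -1.15, -0.67 and -0.43 in the same order of groups. For Dusp1 they were Osgin1 (0.972), Scamp1 (0.963) and Ighm (0.962), the last the heavy chain of IgM, a B cell product. For Dusp2 they were Banp (0.984), Cfap74 (0.983) and Nos1ap (0.974), and for Dusp6 Rhbdd3 (0.993), Tmem94 (0.985) and Acacb (0.984).

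The remaining MAP kinase phosphatases gave 1 call. Of Dusp7, Dusp8, Dusp9 and Dusp16, all tested, Dusp8, a phosphatase selective for JNK and p38, fell in Treg against naive (log2 -0.92 ± 0.21, limma adjusted p = 0.0239, and -1.17 and -0.67 on slides 1 and 2). Dusp7, Dusp9 and Dusp16 were called in none of the 6 comparisons, nor was Dusp8 in the other 5. The shares of all tested genes called against naive, which the counts of the pathway lists are read against, were 11.6% higher and 10.3% lower in Treg, 13.2% and 14.5% in CD44hi, and 4.53% and 0.761% in CD44lo. The medians of all tested genes were -0.20, -0.15 and -0.13. Among 13 tested atypical dual-specificity and slingshot phosphatases, 2 were higher and 2 lower in Treg, 2 higher and 2 lower in CD44hi, and 1 higher and 0 lower in CD44lo, beside 21.9%, 27.8% and 5.29% of all genes either way, with medians of -0.20, -0.30 and -0.25. Dusp14, an atypical phosphatase that dampens T cell receptor signalling, was the 1 called in all 3. Its naive signal was not well above background, and it was at least 13.7-fold higher in Treg, at least 21.6-fold in CD44hi and at least 4.96-fold in CD44lo (limma adjusted p = 0.000231, 0.000134 and 0.00192). Such a bound sets the mean of the brighter group against the lowest signal well above background on each naive array, or the gene's own signal there where that was higher. The slingshot phosphatases, which act on cofilin, moved apart: Ssh1 rose by log2 0.99 in Treg and 1.15 in CD44hi, and Ssh2 fell by 0.81 in Treg and 1.19 in CD44hi (limma adjusted p = 0.00367, 0.00161, 0.0218 and 0.00393).

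Of 9 tested MAP kinases, the family that holds the substrates of these phosphatases, 1 was higher and 1 lower in Treg, 1 higher and 1 lower in CD44hi, and 1 higher and 0 lower in CD44lo against naive. All tested genes were called at 21.9%, 27.8% and 5.29%, and the medians of the kinases were -0.06, 0.14 and 0.01. The one higher in all 3 was Mapk12, p38 gamma, at log2 2.86 ± 0.15, 2.25 ± 0.15 and 2.29 ± 0.15 (limma adjusted p = 6.8e-05, 0.000139 and 0.000369). Mapk14, p38 alpha, fell in Treg (log2 -0.82 ± 0.20, limma adjusted p = 0.0291), and Mapk8, JNK1, fell in CD44hi on its brightest probe (log2 -0.80 ± 0.17, limma adjusted p = 0.0142), while 1 of its 4 other probes had the opposite sign. Of 7 MAP kinase kinases, Map2k6 fell in Treg (log2 -1.01 ± 0.18, limma adjusted p = 0.00889) and Map2k3 rose in CD44hi (log2 1.15 ± 0.18, limma adjusted p = 0.0047) against naive. Both activate p38. Of the 7, 1 was called in Treg, 1 in CD44hi and 0 in CD44lo against naive, beside 21.9%, 27.8% and 5.29% of all genes.

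Of 16 tested Ras and Raf activators, 2 were higher and 5 lower in Treg, 3 higher and 4 lower in CD44hi, and 2 higher and 0 lower in CD44lo against naive, where 21.9%, 27.8% and 5.29% of all genes were called. Their medians were -0.35, -0.21 and -0.09. Ksr1, a scaffold for Raf, MEK and ERK, rose by log2 1.49, 1.88 and 1.02 in Treg, CD44hi and CD44lo (limma adjusted p = 0.00145, 0.000456 and 0.0191). Rasgrp4, a Ras exchange factor, rose by 1.75, 0.89 and 1.31 (limma adjusted p = 0.0021, 0.026 and 0.0187), and its other probe had the opposite sign in CD44hi. Rasgrp2, an exchange factor for Rap, fell by 2.16 in Treg and 1.25 in CD44hi against naive, and by 1.26 in Treg against CD44lo and 0.91 in Treg against CD44hi (limma adjusted p = 0.000512, 0.00442, 0.0161 and 0.037). Of 11 tested Sprouty, Spred and RasGAP inhibitors, 2 were higher and 1 lower in Treg, 2 higher and 3 lower in CD44hi, and 2 higher and 0 lower in CD44lo against naive, beside the same shares of all genes, with medians of -0.10, -0.32 and -0.01. Those higher were the same 2 genes each time. Spry1, an inhibitor of Ras to ERK signalling, rose by log2 3.29, 2.91 and 2.17, and Dab2ip, a Ras GTPase-activating protein, rose by 3.96, 3.90 and 3.87 in Treg, CD44hi and CD44lo (limma adjusted p at most 0.0023 in all 6). Spry1 was also higher in Treg than in CD44lo (log2 1.13 ± 0.18, limma adjusted p = 0.0175).

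**Figure D4:**
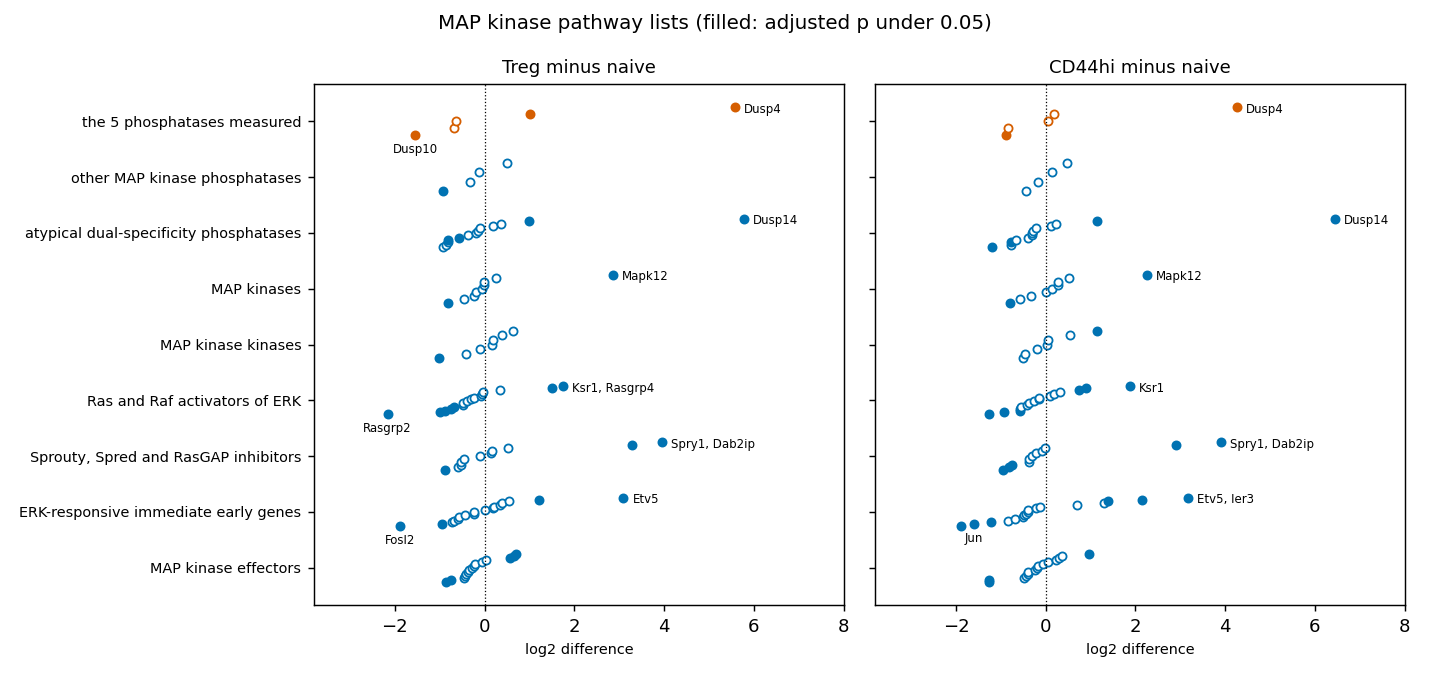
Log2 differences of all tested genes of each MAP kinase pathway list (rows), for Treg minus naive on the left and CD44hi minus naive on the right, with filled points where the limma adjusted p was under 0.05 and the names of genes given in the text that were called beyond log2 1.4. Dusp4 is named on both sides, with Mapk12, Spry1 and Dab2ip, and the fitted values of Dusp14 and Etv5 rest on naive signal not well above background.

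Of 17 tested immediate early genes that respond to ERK, 2 were higher and 2 lower in Treg, 3 higher and 3 lower in CD44hi, and 1 higher and 0 lower in CD44lo against naive, where 21.9%, 27.8% and 5.29% of all genes were called either way. Their medians were -0.24, -0.39 and -0.18. Etv5, an Ets factor induced by ERK, was not well above background in naive and was at least 5.88-fold higher in Treg, 3.07-fold in CD44hi and 3.21-fold in CD44lo (limma adjusted p = 0.00077, 0.00307 and 0.00783). Jun, a subunit of the AP-1 factor, fell by log2 1.6 in CD44hi against naive and was higher by 1.02 in Treg than in CD44hi (limma adjusted p = 0.00159 and 0.0253). Ier3, an early gene that binds ERK, rose by 3.16 in CD44hi against naive and was lower in Treg than in CD44hi by log2 -2.78 (limma adjusted p = 0.000365 and 0.00235). Fosl2, a Fos family member, fell by 1.89 in Treg against naive (limma adjusted p = 0.0012). Of 15 tested effectors, 3 were higher and 2 lower in Treg against naive, and 1 higher and 2 lower in CD44hi. In CD44lo 0 were higher and 0 lower. The shares of all genes called either way were again 21.9%, 27.8% and 5.29%. The medians of the effectors were -0.28, -0.19 and -0.21.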

How the data were processed

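Per the file headers, the deposited spot intensities came from Agilent Feature Extraction 9.5.1.1. The processed intensity used here had its background subtracted and a spatial trend removed array by array, and arrays were not scaled to each other. Flag columns, of unit other, mark background, saturation and outliers in the deposited files. The authors' deposited value table is on a log2 scale. Its column medians were 6.86 to 6.88, and it followed the raw median signal of each array in rank (Spearman 0.9999 or above across probes). Ranks cannot show whether a constant background was subtracted. The scaling step of this table is not given in the sources used here, and the table served as an alternative. The submitters' processing notes name limma.

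Control spots and outlier spots were left out, and spots of a probe were averaged. Of the probes, 22951 were named through an accession, 6659 by symbol, 3109 by an older symbol and 8455 by the name in the files. The processed intensity was taken to log2, centred on the 75th percentile of each array's non-control probes, and fitted with limma 3.58.1 in R 4.3.3 on all 8 arrays without a block (4 residual and 2.62 prior degrees of freedom), all tests 2-sided. A gene was represented by its brightest probe and tested where some group had it well above background on both of its arrays. The fit was tested on simulated data with changes set in Treg only, each larger than any difference of Dusp1, Dusp2, Dusp6 or Dusp10 here. The simulated noise was independent between arrays and alike in all groups. Smaller differences, and noise shared between samples or wider in naive, were thus not covered. The number of arrays limits the precision.

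The phosphatases, pathway lists and tests were chosen with earlier results of these data known. Named pathway genes were at most the 4 of a list with the lowest adjusted p in any comparison. Marker lists were CD4 T cell, regulatory, naive, effector and memory, CD8 T and NK cell, B cell, and myeloid and dendritic cell genes. The 11 CD8 T and NK cell markers summed to 12.7 and 12.7 in Treg, 28.6 and 24.3 in CD44hi, 14.2 and 12.9 in CD44lo, and 18.2 and 23.2 in naive, as multiples of the 75th percentile. This sum joins markers that moved apart. Of the 10 tested, 5 were called higher and 4 lower in Treg against naive, and 6 higher and 3 lower in CD44hi. Alternatives changed the background correction, scaling, probe filter, probe summary, slide or replicate block, groups in the fit, variance model and arrays. The sample titles carry m1 or m2 in every group, and the labels do not say what these marks mean. Same-numbered samples correlated at 0.06 to 0.33 in their deviations from the group means over the 6 pairs of groups. Samples on the same slide correlated at -0.26 to 0.33. The labels state no shared animal, so the numbers were not used as pairs. Promoter windows come from RefSeq (GRCm38.p6), which had an entry for 5 of the 6 genes.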

Additional observations from a re-analysis of the deposited data

How the results depend on the processing

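Of 570 log2 differences over the 5 genes, 6 comparisons and 19 alternatives, 506 kept their direction and side of the threshold, 29 passed it newly, 23 no longer passed it and 12 turned sign. All 19 alternatives kept the calls of Dusp4 in Treg, CD44hi and CD44lo over naive (log2 4.70 to 5.80, 3.42 to 4.49 and 2.50 to 3.65) and of Dusp10 in Treg over naive (-1.64 to -1.35). Counts of called phosphatases moved as follows. In CD44lo against naive (1) it was 2 with normexp, with the replicate block and with an intensity trend, and 1 to 2 without 1 array. In Treg against naive (3) it was 2 with no filter on dim probes and in a fit of the 2 groups alone, each time without Dusp1, and 2 (without either Treg array) to 4 (without naive array 1, which added Dusp6). In CD44hi against naive (2) it was 3 with the replicate block, 1 in a fit of the 2 groups alone and 1 to 2 without 1 array. In CD44hi against CD44lo (0) it was 1 in the authors' table and with the replicate block, Dusp4 both times. In Treg against CD44lo (2) it was 1 with no filter on dim probes and with slide as a block, and 0 to 2 without 1 array. In Treg against CD44hi (1) it was 4 with normexp, in the authors' table and with an intensity trend, 3 with quantile normalization and with probes above background on all arrays, 2 with the replicate block, 0 with no filter or slide as a block, and 0 to 3 without 1 array. There Dusp1, Dusp6 and Dusp10, not called, were each called in 7 of 19 alternatives and Dusp4 in 10. The replicate block is not taken as a pairing of the samples. It newly called Dusp10 in CD44lo (adjusted p = 0.0481) and Dusp2 in CD44hi (0.0201) over naive, and Dusp10 in Treg against CD44hi (0.0324).

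The sign changes were in differences not called. Dusp6 in CD44lo over naive was 0.00 with normexp, 0.04 with quantile normalization, 0.02 in the authors' table and -0.55 to 0.11 without 1 array. Without 1 array, Dusp1 in CD44hi over naive was -0.16 (without naive array 1) to 0.28, Dusp6 in CD44hi over naive -0.15 (without naive array 1) to 0.52, Dusp2 in CD44hi over CD44lo -0.75 to 0.01 (without CD44hi array 2), Dusp2 in Treg over CD44lo -0.48 to 0.15 (without Treg array 2), and Dusp2 in Treg over CD44hi -0.18 (without CD44hi array 2) to 0.59. The cause was not tested. Over all genes, calls over naive (3941 in Treg, 4998 in CD44hi, 952 in CD44lo) were 9200, 9231 and 7191 without naive array 1, 2301, 3129 and 606 with no filter, and 2522, 2610 and 697 in fits of 2 groups. The share higher in CD44lo over naive, 85.6%, was 68.6% with normexp, 70.3% in the authors' table and 33.2% without naive array 1, where most calls were then lower. Without that array the shares were 33.8% against 52.8% in Treg and 35.9% against 47.7% in CD44hi over naive. The median of all genes over naive was -0.20 in Treg and moved to -0.09 with normexp. Calls also moved by over 1.5 times in the other comparisons, from 1001 to between 188 and 1641 in Treg against CD44lo, from 1474 to between 535 and 2635 in Treg against CD44hi, and from 1686 to between 513 and 2765 in CD44hi against CD44lo.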
